A study of Bos taurus with 3 samples.

Results

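The cells described here are epithelial cells of the bovine rumen in which transcripts of DLK2 and SOSTDC1 were found together and transcripts of AOX1 and PDK4 were not. They were chosen by UMI counts of these 4 genes alone: at least 1 UMI of DLK2, at least 1 UMI of SOSTDC1, and 0 UMIs of AOX1 and of PDK4 (a UMI, or unique molecular identifier, marks 1 captured transcript). The gate took 432 of 20728 cells (2.08%) and 5.51% of the 7834 DLK2-positive cells. They are called SOSTDC1 cells below. The tissue was the ventral sac of the rumen of 3 adult lactating Holstein dairy cows, all kept under 1 condition, with 1 droplet library per cow made from enzymatically freed cells. Each cow is 1 replicate, and cells of the same cow are not. The cow of a cell came from the suffix of its barcode. Before deposit the authors had kept epithelial cells only, so the values say nothing of other rumen cells.

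SOSTDC1 encodes a secreted antagonist of BMP and WNT signals, known from teeth, hair and other epithelial appendages, where it limits how many appendages form. BMPs are secreted ligands that bind receptors on the cell surface and act through SMAD proteins, while WNT ligands act through Frizzled and LRP receptors and beta-catenin. DLK2 encodes a membrane protein related to the ligands of Notch that lacks the domain by which classical ligands bind, and the study took it as its marker of granule cells, the layer below the cornified surface. AOX1 encodes aldehyde oxidase, and PDK4 encodes a kinase that restrains the entry of pyruvate into the citric acid cycle.

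The depth was 491596 UMIs in the 45 SOSTDC1 cells of cow 1, 349464 in the 26 of cow 2 and 3514069 in the 361 of cow 3. Over whole libraries it ran from 38912809 to 104189434 UMIs per cow. Among the 20728 cells, 35 barcode sequences occurred in 2 libraries. They covered 70 cells, of which 1 was a SOSTDC1 cell and 26 were DLK2-positive cells without SOSTDC1. The largest part of the SOSTDC1 cells, 83.6%, came from cow 3, which gave 48.0% of all cells and 29.3% of the 7068 DLK2-positive cells without SOSTDC1.

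The share of SOSTDC1 cells among the DLK2-positive cells differed widely between the cows. It was 3.16% in cow 1 (45 of 1423, 95% exact binomial interval 2.32 to 4.21%), 0.683% in cow 2 (26 of 3809, 0.446 to 0.999%) and 13.9% in cow 3 (361 of 2602, 12.6 to 15.3%). The intervals cover counting error only and did not overlap. The mean was 5.91% ± 7.01 (SD, n = 3), so the spread between the cows was larger than the mean. When every cell was thinned to 5000 UMIs before the gate was applied, the shares were 3.36%, 0.573% and 11.3% in the same order of cows. With at least 2 UMIs of SOSTDC1 required, cow 2 kept 1 cell.

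Most of these cells sat at the edge of the gate. Of the 432, 283 held a single UMI of SOSTDC1, 149 held 2 or more, and the most in 1 cell was 9. A single UMI of DLK2 was found in 256 cells, and 166 cells had 1 UMI of both genes. On the other side of the gate, 334 DLK2-positive SOSTDC1-positive cells were left out for AOX1 or PDK4, 254 of them for PDK4 alone, 44 for AOX1 alone and 36 for both. In 145 of those the reason was 1 UMI. In cow 3, 37.7% of the SOSTDC1 cells had at least 2 SOSTDC1 UMIs, against 26.7% in cow 1 and 3.85% in cow 2.

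**Figure D1:**
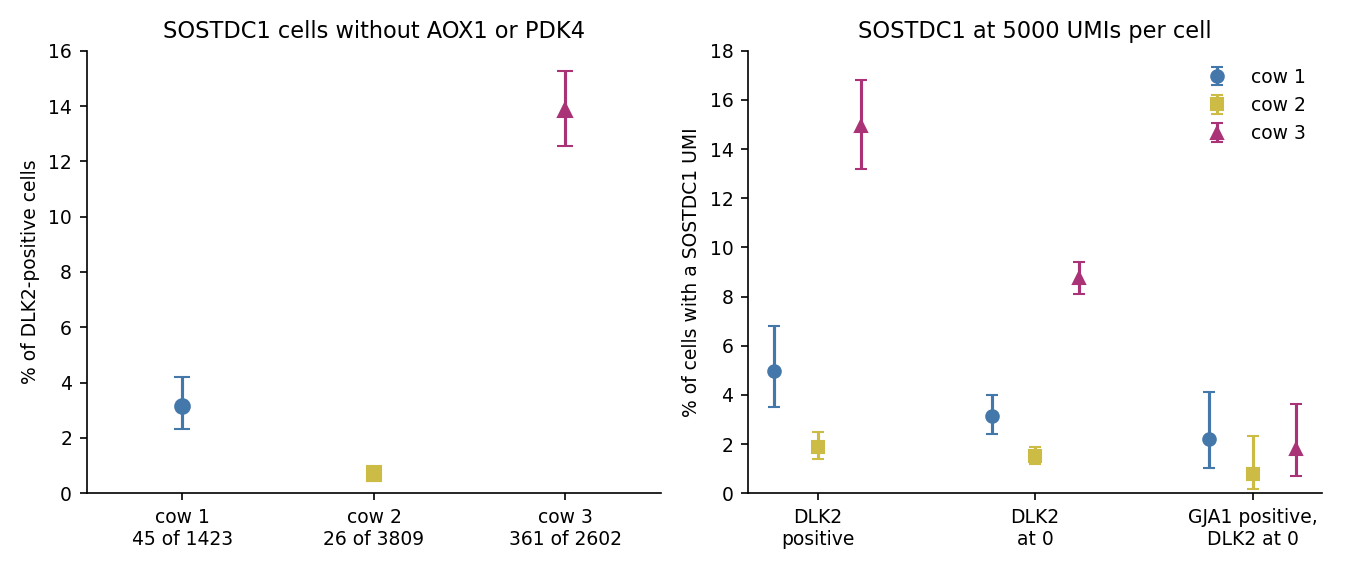
Left, the share of DLK2-positive cells that were SOSTDC1 cells without AOX1 or PDK4 (%, by cow); right, the share of cells with a SOSTDC1 UMI (%) after thinning each cell to 5000 UMIs, in DLK2-positive cells, cells with DLK2 at 0, and GJA1-positive cells with DLK2 at 0. Bars are 95% exact binomial intervals. Cow 3 stands above the other cows in DLK2-positive cells, and the intervals of cow 2 overlap across the 3 kinds of cell.

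SOSTDC1 transcripts were not confined to DLK2-positive cells. At all UMIs, the share of cells with a SOSTDC1 UMI was 7.38% in DLK2-positive cells and 6.32% in cells with DLK2 at 0 in cow 1, 3.41% and 3.01% in cow 2, and 20.4% and 13.9% in cow 3. The cells with DLK2 at 0 were deeper, with median UMIs of 11197, 13330.5 and 9973.5 against 9408, 10892 and 9161.5. At 5000 UMIs per cell, with DLK2 also read after thinning, the shares were 4.97% and 3.14% in cow 1, 1.88% and 1.50% in cow 2, and 14.9% and 8.74% in cow 3. Thinning left out 466 DLK2-positive cells and 1052 others that were shallower. GJA1, a gap junction gene, served the study as the marker of another kind of cell, its channel-gap-like spinous cells. Cells with GJA1 and no DLK2 were taken as a comparison, but whether their SOSTDC1 UMIs were free RNA was not tested. At all UMIs, SOSTDC1 was found in 4.07%, 2.70% and 7.80% of them, at median depths of 16332, 18172 and 13811 UMIs. At 5000 UMIs, SOSTDC1 was found in 9 of 409 of these cells in cow 1 (2.20%, 1.01 to 4.14%), in 3 of 376 in cow 2 (0.798%, 0.165 to 2.31%) and in 7 of 394 in cow 3 (1.78%, 0.717 to 3.63%). The share in DLK2-positive cells of cow 3 (13.2 to 16.8%) lay above that range. The share of cow 1 (3.53 to 6.79%) and that of cow 2 (1.38 to 2.50%) overlapped it. At this depth the SOSTDC1 share of cow 2 was therefore not set apart from that of the GJA1-positive cells, where it rests on 3 cells. In cells with the cycling marker MKI67 and no DLK2, SOSTDC1 was found at 5000 UMIs in 2 of 220, 2 of 184 and 43 of 1067 (0.909%, 1.09% and 4.03%).

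The 0 UMIs of AOX1 and PDK4 did not set SOSTDC1-positive cells apart from other DLK2-positive cells in the same way in each cow. AOX1 or PDK4 was found in 57.1% of DLK2-positive cells with SOSTDC1 and 58.0% of those without in cow 1, in 80.0% and 72.1% in cow 2, and in 32.0% and 26.4% in cow 3. At 5000 UMIs per cell these shares were 32.4% and 50.4% in cow 1, 69.6% and 62.1% in cow 2, and 24.1% and 19.6% in cow 3. The 32.4% rests on 12 of 37 cells. Cow 3, with the most SOSTDC1 cells, also had the lowest shares with AOX1 or PDK4. Since the gate asks for 0 UMIs of both genes, this is partly fixed by the gate and is not read as a result.

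The 4 genes of the gate were measured as follows, as a description, since the gate fixed them. SOSTDC1 stood at 1.22 UMIs per 10000 UMIs of the sum in cow 1, 0.773 in cow 2 and 1.66 in cow 3. DLK2 stood at 1.95, 1.89 and 1.57 in the SOSTDC1 cells and at 1.70, 1.74 and 1.48 in the DLK2-positive cells without SOSTDC1. AOX1 and PDK4 were at 0 by choice. Without SOSTDC1 in the gate, PDK4 stood at 2.08, 3.97 and 0.421 and AOX1 at 0.503, 0.157 and 0.116. SOSTDC1 was at a like level where AOX1 or PDK4 was present, with 1.02, 0.926 and 1.67 per 10000 UMIs in those cells.

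PLAC8, BMP7 and KRT7 had been taken as further markers of these cells. Within the cows, PLAC8 followed the cow, while BMP7 and KRT7 were each higher in 2 of 3 cows. PLAC8 encodes a small cysteine-rich protein, BMP7 a BMP ligand, and KRT7 a keratin of simple epithelia. PLAC8 was at 0 UMIs in the SOSTDC1 cells of cow 1, at 0.0572 UMIs per 10000 in cow 2 and at 1.33 in cow 3. DLK2-positive cells without SOSTDC1 had 0.000703, 0.0920 and 1.22. The level followed the cow, and the SOSTDC1 cells were higher in cow 3 alone, by 1.09 times. The count of 0 in cow 1 allows up to 0.0610 UMIs per 10000.

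BMP7 stood at 0.0407, 0.0858 and 0.344 in the SOSTDC1 cells and at 0.0879, 0.0546 and 0.213 in the DLK2-positive cells without SOSTDC1. It was higher in cows 2 and 3 and lower in cow 1. In cows 1 and 2 the values rest on 2 and 3 UMIs. KRT7 stood at 0.122, 0 and 0.250 in the SOSTDC1 cells and at 0.105, 0.0471 and 0.192 in the others, and was thus higher in cows 1 and 3. Pooled over the cows, the SOSTDC1 cells had 2.91 times as much PLAC8, 2.84 times as much BMP7 and 2.26 times as much KRT7. Within a cow the highest ratio was 1.09 for PLAC8, 1.62 for BMP7 and 1.31 for KRT7. Against the DLK2-positive cells with 0 UMIs of SOSTDC1, AOX1 and PDK4, the pooled ratios were 2.18, 2.50 and 2.25. Within a cow the highest were then 1.24 for PLAC8 (cow 3), 2.03 for BMP7 (cow 2) and 1.79 for KRT7 (cow 1). The last 2 rest on 3 and 6 UMIs in the SOSTDC1 cells. In cow 3 BMP7 and KRT7 had 1.70 and 1.61, and BMP7 was again lower in cow 1. In cow 3 a BMP7 UMI was found in 26.9% of SOSTDC1 cells (22.4 to 31.8%) and in 17.9% of the cells without SOSTDC1 (16.3 to 19.6%), and a KRT7 UMI in 19.7% (15.7 to 24.2%) and 13.8% (12.3 to 15.4%). In DLK2-positive SOSTDC1-positive cells with AOX1 or PDK4, KRT7 stood at 0.248, 0.0519 and 0.386, above the SOSTDC1 cells in each cow. PLAC8 stood there at 0, 0.0741 and 1.71, above them in cows 2 and 3. BMP7 stood there at 0.131, 0.0815 and 0.296, above them in cow 1 alone. These 3 genes were chosen with these data known, so their levels are a description and no p is given for them. Since they did not mark the cells in every cow, the cells are called by the genes of their gate.

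**Figure D2:**
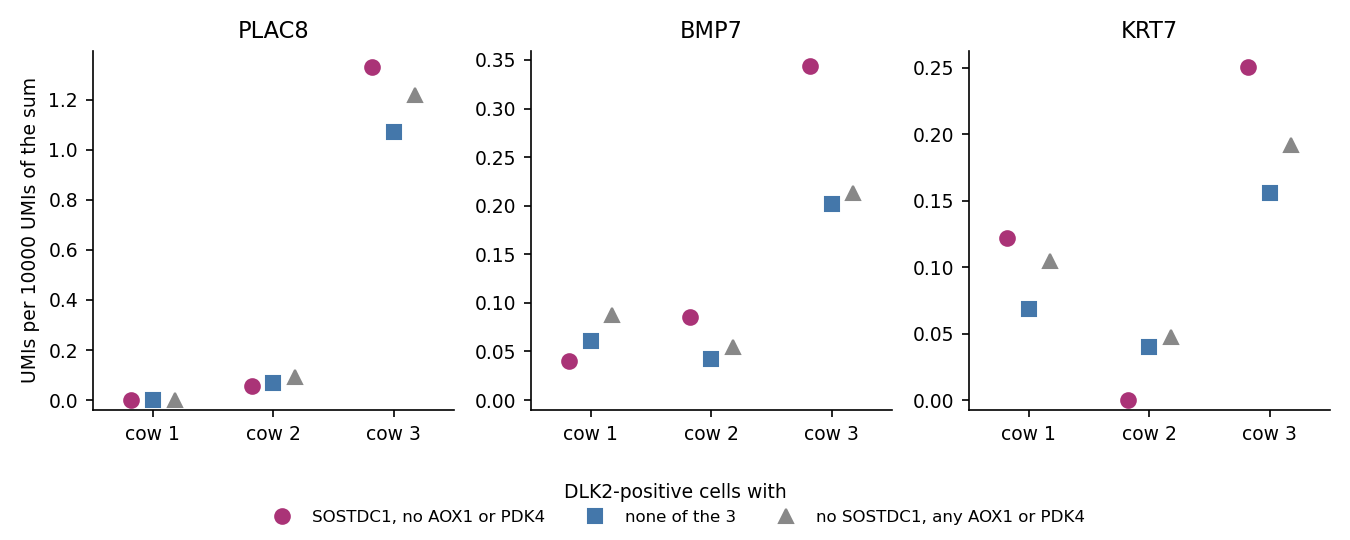
Level of PLAC8, BMP7 and KRT7 (UMIs per 10000 UMIs of the sum) in each cow, in SOSTDC1 cells without AOX1 or PDK4 (circles), in DLK2-positive cells with none of the 3 genes (squares) and in all DLK2-positive cells without SOSTDC1 (triangles). For PLAC8 the 3 kinds of cell lie close together in each cow, at 0 to 0.00155 in cow 1 and at 1.07 to 1.33 in cow 3.

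Pooled differences at large were also wider than those within cows. Among 3360 genes with at least 100 UMIs in the SOSTDC1 cells, the 50 with the highest pooled difference from DLK2-positive cells without SOSTDC1 had a median log2 difference of 0.94 over the pooled cells. Within the cows their medians were 0.28, -0.13 and 0.25, and 12 of the 50 kept that direction in all 3 cows. Among the 50 lowest the pooled median was -1.30, while the medians within the cows were -0.47, -0.20 and -0.16, and 27 of the 50 kept their direction in all 3 cows. Of the 50 highest 1 gene was called within cows, and of the 50 lowest 9 were. All comparisons below were therefore made within cows.

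The cells carried KRT5 and KRT14, keratins of stratified epithelium that the study used as its markers of basal cells. KRT5 does not set the cells apart, as it was also found in 98.97%, 99.94% and 99.96% of cells with DLK2 at 0. KRT5 was found in 45 of 45, 26 of 26 and 361 of 361 SOSTDC1 cells and KRT14 in 44, 26 and 361. KRT5 stood at 41.2, 36.3 and 66.9 UMIs per 10000 in the SOSTDC1 cells and at 35.5, 37.5 and 69.0 in the DLK2-positive cells without SOSTDC1. The 22 basal genes measured summed to 129 to 178 in the SOSTDC1 cells and 121 to 190 in the others. The 23 spinous and suprabasal genes summed to 42.6 to 46.7 and 34.8 to 46.7. The 18 cornified envelope and late genes summed to 1.24 to 5.12 and 1.40 to 4.36, with LOR, TGM1, SPINK5, KLK7, CNFN and ALOX12B at 0. Markers of cells outside the epithelium were low, and highest for the immune list, with 11, 12 and 61 UMIs in the SOSTDC1 cells. The 8 fibroblast markers measured summed to 0 to 0.0313 UMIs per 10000 in the SOSTDC1 cells and 0.0169 to 0.0453 in the others, with COL1A1, COL1A2, COL3A1, DCN and PDGFRB at 0. The 7 endothelial markers summed to 0.0286 to 0.0407 and 0.0276 to 0.0352, with PECAM1, CDH5, KDR, CLDN5 and TEK at 0. The 10 immune markers summed to 0.174 to 0.343 and 0.223 to 0.404, with CD3D, CD2, CD79A and LYZ at 0. The 6 smooth muscle markers summed to 0 to 0.0114 and 0.0132 to 0.0250, with ACTA2, MYH11 and TAGLN at 0. The 6 melanocyte, Merkel cell and nerve markers measured summed to 0.0286 to 0.105 and 0.0369 to 0.0667.

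Depth per cell was close in the SOSTDC1 cells and all DLK2-positive cells without SOSTDC1. The median was 9147, 10947.5 and 8903 UMIs in the SOSTDC1 cells and 9402.5, 10879 and 9251 in the DLK2-positive cells without SOSTDC1, a mean difference of -178 ± 219 (SD, n = 3, exact sign-flip permutation p = 0.5, two-sided, where 0.25 is the smallest p that 3 cows allow). The median mitochondrial share of UMIs was 12.2%, 10.1% and 10.9% in the SOSTDC1 cells and 13.2%, 10.1% and 11.9% in the others.

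The first comparison asked which genes differed between the SOSTDC1 cells and all DLK2-positive cells without SOSTDC1. In the SOSTDC1 cells, 7 of 27 tested immediate-early and stress genes and 3 of 24 genes of mitosis were called lower, and so was BDH1, the enzyme that forms beta-hydroxybutyrate in ketone body synthesis. UMI counts were summed per cow and tested with the cow as a block in the edgeR quasi-likelihood test. A gene counted as called where its log2 fold change lay beyond 0.36 and its Benjamini-Hochberg adjusted p was below 0.05. With 1 library per cow and the cow as a block, level differences between the cows are taken out of these p-values. They measure how the difference between the groups varied over 3 cows, with that variation estimated in part from the other genes. A gene can thus be called although its own cows disagree. Levels below are normalised CPM (the UMIs of a gene per fixed total of UMIs, after TMM scaling). The test itself gives no SE. The SE beside an edgeR log2 fold change is the absolute log2 fold change divided by the square root of the F statistic. Of 10096 genes tested, 6 were called higher (0.0594%) and 20 lower (0.198%). Of these, 3 of the 6 and 17 of the 20 had the same sign in each of the 3 cows. The calls were few and rested on the block. With no term for the cow, 0 genes were called in either direction and 87 had an unadjusted p under 0.05, against 477 with the block. DESeq2 called 1 gene higher and 1 lower. Without cow 1 there were 3 and 1, and without cow 2 there were 6 and 60.

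Of the 30 immediate-early and stress genes, which many cells induce within minutes of a stimulus, 27 were tested, 7 were called lower and 0 higher, with a median log2 fold change of -0.32 beside -0.01 over all genes. A lower level in each of the 3 cows was found for 20 of the 27, beside 1577 of all 10096 genes. ATF3, a stress-induced transcription factor, stood at 296, 407 and 13.6 CPM in the SOSTDC1 cells of cows 1 to 3 and at 483, 638 and 33.4 in the cells without SOSTDC1. It was lower in each cow (log2 fold change -0.82 ± 0.11 SE, adjusted p = 2e-09, edgeR), although its level in cow 3 was far below that in the other cows in both groups. ZFP36, a protein that destabilises inflammatory mRNAs, stood at 74.1, 486 and 39.0 against 198, 694 and 49.8 (-0.66 ± 0.11, adjusted p = 2.23e-05). EGR1, an early growth response factor, stood at 306, 624 and 61.5 against 488, 991 and 77.7 (-0.56 ± 0.10, adjusted p = 5.56e-05). JUN, a subunit of AP-1, stood at 1823, 3708 and 752 against 2582, 4983 and 910 (-0.40 ± 0.08, adjusted p = 0.000221).

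These genes moved together with IER2 (-0.56), GADD45B (-0.62) and the ER chaperone gene HSPA5 (-0.55), each lower in 3 of 3 cows. CXCL3 (-0.60), a chemokine gene with near-identical relatives whose reads may be split, and ADM (-0.84), which encodes the vasodilator peptide adrenomedullin, were also lower in each cow. Without cow 1, ATF3 alone of the immediate-early genes named here was still called.

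The set of cells without SOSTDC1 includes 3962 that carry AOX1 or PDK4 and 3106 that do not, while the SOSTDC1 cells by choice carry neither. The second comparison therefore used the 3106 gate-matched cells, which like the SOSTDC1 cells had DLK2 and 0 UMIs of AOX1 and PDK4. Against them, 0 of the 27 immediate-early and stress genes were called in either direction, and their median was -0.03, equal to the -0.03 over all genes. EGR1 stood at 309, 606 and 60.7 CPM in the SOSTDC1 cells and at 309, 640 and 55.8 in the gate-matched cells (-0.01 ± 0.11 SE, edgeR). JUN differed by 0.04 ± 0.08, ZFP36 by -0.03 ± 0.14 and ATF3 by -0.21 ± 0.16. The lower immediate-early genes of the first comparison were thus not called once AOX1 and PDK4 were matched. Of the genes named with them, IER2 differed by -0.28, GADD45B by -0.13, CXCL3 by -0.32, HSPA5 by -0.39 and ADM by -0.57. None of these was called, but ATF3, HSPA5 and ADM were still lower in each cow. For ATF3 this held only after TMM scaling. Its unscaled levels were 325.5, 380.6 and 13.9 CPM against 315, 379.1 and 20.5, lower in cow 3 alone.

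Against the gate-matched cells, 14 of 9606 genes were called higher (0.146%) and 60 lower (0.625%), and 9 and 49 of them had the same sign in each cow. Those called lower included 7 of 24 genes of mitosis, and BDH1. With no term for the cow 0 genes were called in either direction, and 161 had an unadjusted p under 0.05, against 935 with the block. DESeq2 called 3 higher and 12 lower. Without cow 1 there were 7 and 12, and without cow 3 there were 0 and 6. The gate-matched cells had higher median mitochondrial shares in each cow (16.6%, 11.1% and 12.3%) and were deeper in each cow than the SOSTDC1 cells, with medians of 10206, 12411.5 and 9495.5 UMIs per cell. The part of this depth in the shares of cells with a UMI given below was not tested. With cells of 5 to 20% mitochondrial share only, 11 genes were called higher and 49 lower.

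**Figure D3:**
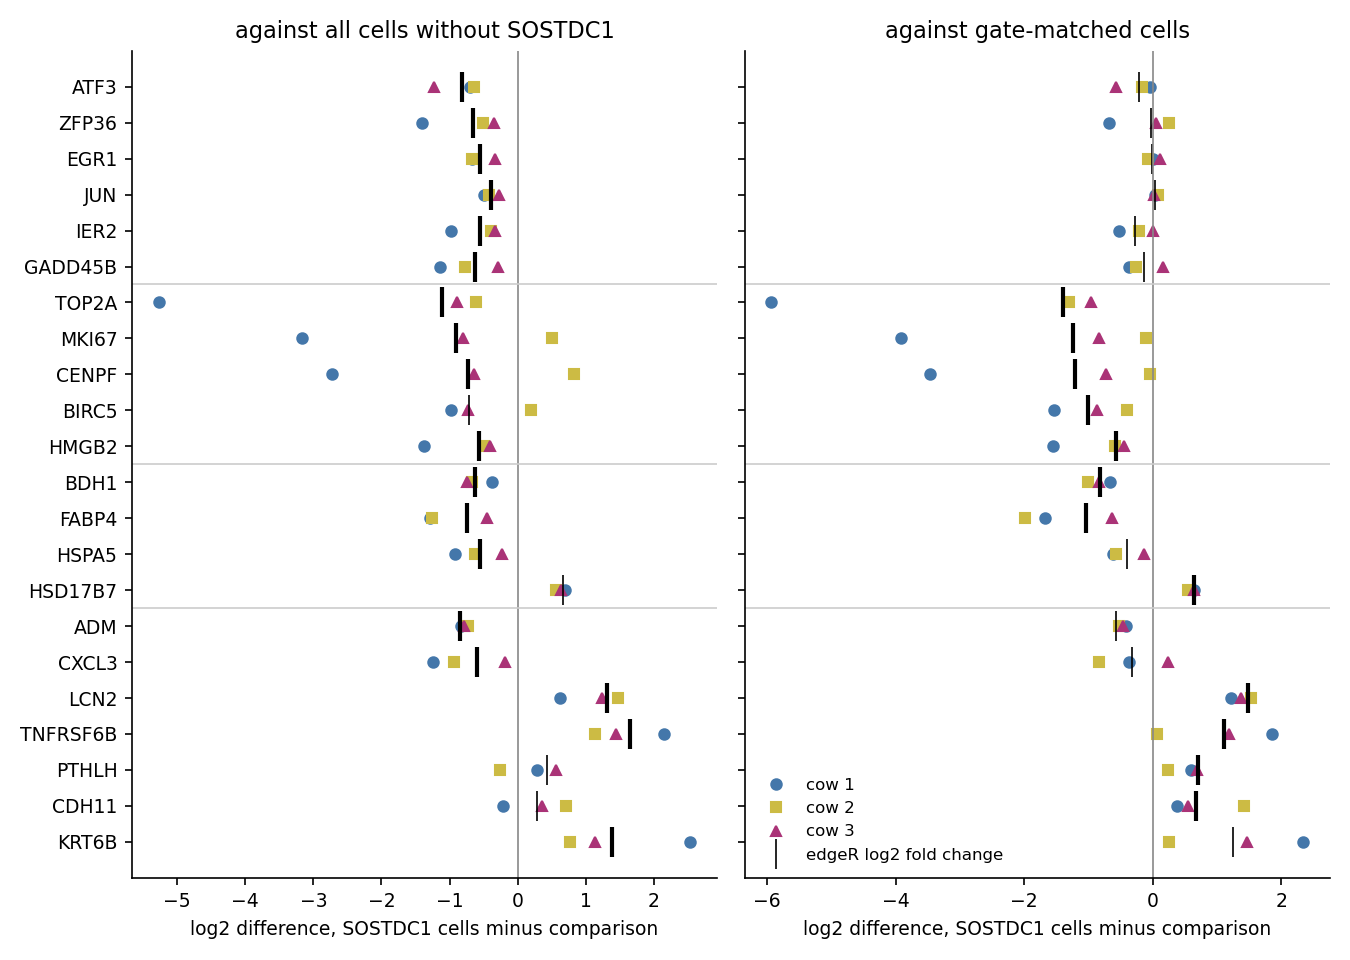
Log2 difference of the level in SOSTDC1 cells from that in all DLK2-positive cells without SOSTDC1 (left) and in gate-matched cells (right), for named genes. Symbols are single cows (log2 of CPM + 1) and vertical ticks the edgeR log2 fold change, thick where the gene was called; grey lines part the immediate-early, mitosis, metabolism and secreted or surface groups. The 3 cows of ATF3, ZFP36, EGR1 and JUN lie below 0 on the left, the edgeR values on the right run from -0.21 to 0.04, and BDH1 lies below 0 in each cow in both.

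Of the 24 genes of G2 and mitosis, 7 were called lower than in gate-matched cells and 0 higher. Their median was -0.83 beside -0.03 over all genes, and 9 were lower in each cow, as were 1804 of all 9606 genes. In the first comparison 3 of the 24 were called lower (TOP2A, MKI67 and CENPF), with a median of -0.66, and MKI67 and CENPF were higher in cow 2 there. Only 4 of the 24 were lower in each cow in that comparison, near the share over all genes (1577 of 10096). TOP2A, the topoisomerase that untangles chromosomes before division, stood at 0, 5.94 and 53.0 CPM in the SOSTDC1 cells and at 60.2, 16.2 and 104 in the gate-matched cells. It was lower in each of the 3 cows (edgeR adjusted p = 0.00103) with 0, 2 and 193 UMIs behind the values. Its fitted log2 fold change of -1.39 is 1 value over the 3 cows, of which cow 1 held no UMI. MKI67, a marker of cycling cells, stood at 1.87, 11.9 and 30.0 against 42.5, 12.8 and 54.1 (-1.24 ± 0.27, adjusted p = 0.0142). CENPF, a kinetochore protein, stood at 11.2, 56.4 and 109 against 134, 58.2 and 180 (-1.21 ± 0.24, adjusted p = 0.0057). For MKI67 and CENPF the difference in cow 2 was small. BIRC5, a survivin gene active in cytokinesis, stood at 7.50, 11.9 and 30.8 against 23.6, 15.9 and 56.7 (-1.01 ± 0.18, adjusted p = 0.00203). HMGB2, a chromatin protein of dividing cells, stood at 20.6, 35.6 and 91.8 against 62.5, 53.9 and 125 (-0.56 ± 0.13, adjusted p = 0.0182).

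The mitotic transcripts came from few cells. The 24 genes together gave 30 UMIs in the SOSTDC1 cells of cow 1, 119 in cow 2 and 1823 in cow 3, or 0.610, 3.40 and 5.19 UMIs per 10000. The gate-matched cells had 5.07, 1.83 and 8.74. Cow 2 thus went the opposite way, and there 98 of the 119 UMIs lay in 1 cell. Without that cell the level in cow 2 was 0.662, against 1.69 in the gate-matched cells without their own top cell. This takes out 1 of 26 SOSTDC1 cells but 1 of 1028 gate-matched cells, so no direction is read from it. At least 20 UMIs of these genes were found in 0 of 45, 1 of 26 and 15 of 361 SOSTDC1 cells, and in 27 of 554, 26 of 1028 and 154 of 1524 gate-matched cells. In cow 3 these shares were 4.16% (2.34 to 6.76%) and 10.1% (8.64 to 11.7%), with intervals that did not overlap. In cow 2 they were 3.85% (0.0973 to 19.6%) and 2.53% (1.66 to 3.68%), and thus not lower in the SOSTDC1 cells. In cow 1 the count of 0 has an upper limit of 7.87%, above the 4.87% of the gate-matched cells. The 24 S phase genes had 20 tested and 0 called in either comparison, with medians of -0.24 against gate-matched cells and -0.11 in the first comparison. Without cow 1 or without cow 3, neither MKI67 nor CENPF was called.

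**Figure D4:**
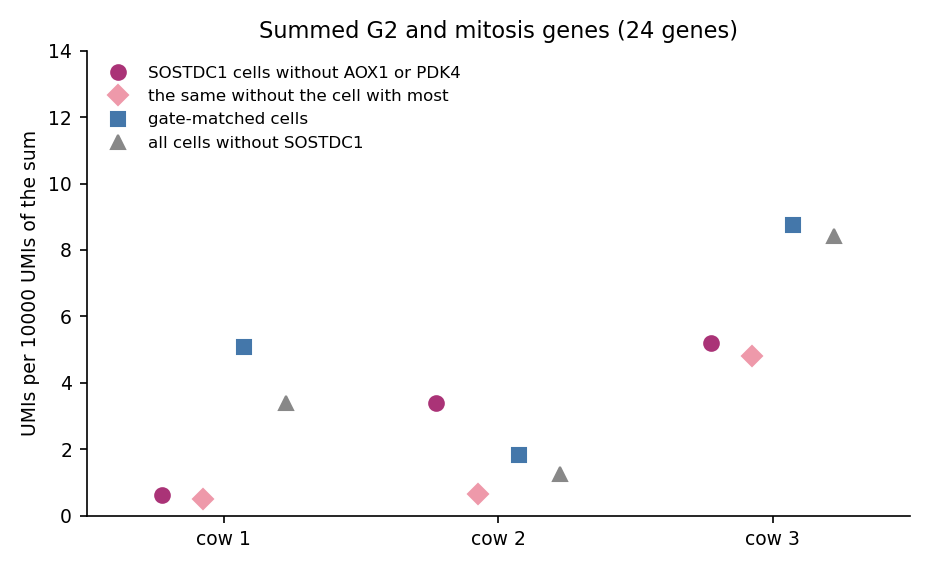
Summed level of the 24 G2 and mitosis genes (UMIs per 10000 UMIs of the sum) in each cow, in SOSTDC1 cells without AOX1 or PDK4, in the same cells without the cell holding the most of these UMIs, in gate-matched cells and in all DLK2-positive cells without SOSTDC1. Leaving out 1 cell of cow 2 moves its level from 3.40 to 0.662, while the compared groups are shown with all their cells.

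BDH1 was lower in the SOSTDC1 cells in every cow and was spread over many cells. It stood at 111, 89.1 and 66.2 CPM against 175, 181 and 119 in the gate-matched cells (log2 fold change -0.83 ± 0.11 SE, edgeR adjusted p = 5.28e-05). Against all cells without SOSTDC1 it stood at 109, 91.7 and 67.1 against 143, 146 and 113 (-0.63 ± 0.13, adjusted p = 0.000771). The groups did not overlap in either comparison. A BDH1 UMI was found in 21 of 45, 9 of 26 and 126 of 361 SOSTDC1 cells (46.7%, 34.6% and 34.9%) and in 59.2%, 66.6% and 55.2% of the gate-matched cells, at the median depths given above. Its call in the first comparison was lost without cow 1 and without cow 3. It was the only gene called among the 14 tested of the list of VFA (volatile fatty acid) and ketone body metabolism in either comparison, and it was lower. The median of these genes was -0.26 against gate-matched cells and -0.10 in the first comparison. Of 12 tested genes of VFA transport, 1 was called lower against gate-matched cells (BSG, the chaperone of monocarboxylate transporters, -0.41), while the list's median was 0.14.

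The transport list did not hold SLC16A1, the monocarboxylate transporter that pairs with BSG, which is named here after its values were seen. SLC16A1 stood at 281, 318 and 253 CPM in the SOSTDC1 cells and at 461, 364 and 395 in the gate-matched cells (-0.59 ± 0.10 SE, edgeR adjusted p = 0.00103). It was lower in each cow and the groups did not overlap. It was not called without cow 1 (-0.50), without cow 3 (-0.49), by DESeq2 (-0.50), with no term for the cow (-0.52) or with at least 2 DLK2 UMIs, where its value was -0.34. It moved the other way to -1.08 with at least 2 SOSTDC1 UMIs and to -0.94 in cells of 5000 to 15000 UMIs. The counts of called genes in the VFA lists therefore do not cover all genes of these pathways.

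FABP4, a fatty acid binding protein, stood at 18.7, 20.8 and 20.6 CPM against 61.8, 85.1 and 32.4 in gate-matched cells (-1.04 ± 0.17 SE, edgeR adjusted p = 0.00103). It was lower in each cow, and the groups did not overlap. Its UMIs were few: 10 in cow 1, 7 in cow 2 and 75 in cow 3, found in 3, 3 and 32 cells, with 8 of the 10 in a single cell of cow 1.

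Genes that were higher against gate-matched cells included PTHLH, which encodes parathyroid hormone-related protein, and CDH11, a cadherin best known from mesenchymal cells. PTHLH stood at 33.7, 23.8 and 50.6 CPM against 22.0, 20.0 and 31.0 (0.70 ± 0.14 SE, edgeR adjusted p = 0.0053). It was found in 12 of 45, 6 of 26 and 137 of 361 SOSTDC1 cells, and in 83 of 554, 155 of 1028 and 365 of 1524 gate-matched cells. CDH11 stood at 45.0, 56.4 and 37.4 against 34.5, 20.4 and 25.3 (0.67 ± 0.15, adjusted p = 0.012). Its groups did not overlap, while those of PTHLH did. HSD17B7, an enzyme of sterol synthesis, stood at 37.5, 32.7 and 30.0 against 23.6, 21.9 and 18.8 (0.65 ± 0.15, adjusted p = 0.0235). The row listed as NRG1.1, which shares the symbol of the EGF family ligand neuregulin 1 with another row, stood at 28.1, 56.4 and 39.0 against 25.2, 26.2 and 27.5 (0.60 ± 0.15, adjusted p = 0.0476). Against all cells without SOSTDC1 none of these 4 genes was called, with log2 fold changes of 0.42, 0.28, 0.66 and 0.51. Without cow 3 none of the 4 was called against gate-matched cells. None was called against SOSTDC1 cells with AOX1 or PDK4 either. There PTHLH had a value of -0.49 ± 0.16, with 40.1, 58.9 and 64.9 CPM in those cells, above the SOSTDC1 cells without AOX1 or PDK4 in each cow, and CDH11 had -0.03 ± 0.18.

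LCN2, a secreted iron-siderophore binding protein of epithelial defence, was called higher in both comparisons with cells without SOSTDC1. It was not called against SOSTDC1 cells with AOX1 or PDK4, where it stood at 5.35, 11.3 and 16.2 CPM (0.21 ± 0.30 SE, edgeR adjusted p = 0.935). It stood at 5.62, 14.9 and 19.8 CPM against 1.83, 4.51 and 7.03 in gate-matched cells (1.48 ± 0.24 SE, edgeR adjusted p = 0.00103), and at 5.56, 15.3 and 20.0 against 3.28, 4.86 and 7.96 in all cells without SOSTDC1 (1.32 ± 0.26, adjusted p = 0.000508). In cow 3 it was found in 38 of 361 SOSTDC1 cells, or 10.5% (7.56 to 14.2%), and in 5.77% (4.66 to 7.07%) of the gate-matched cells. In cows 1 and 2 it rests on 3 and 5 UMIs, and without cow 3 it was called neither in the first comparison nor against gate-matched cells.

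TNFRSF6B, a soluble decoy receptor for FASL and related ligands, had the largest log2 fold change among the genes called higher in the first comparison. It stood at 44.5, 39.7 and 22.5 CPM against 9.26, 17.6 and 7.67 (1.65 ± 0.21 SE, edgeR adjusted p = 5.65e-11), with no overlap between the groups. Against gate-matched cells it stood at 45.0, 38.6 and 22.3 against 11.7, 36.7 and 9.22 (1.11 ± 0.22, adjusted p = 0.0053). Single cells carried much of this. In cow 1, 22 of 24 UMIs lay in 1 cell, and in cow 3, 41 of 81. With the cell holding the most left out of both groups, the unscaled levels were 4.20, 24.4 and 11.4 CPM against 9.29, 14.6 and 6.05 in the cells without SOSTDC1. In the gate-matched cells they were 10.7, 28.8 and 7.03. Since 1 cell is a far larger part of the SOSTDC1 cells than of either larger group, this lowers the SOSTDC1 cells more. The direction after leaving it out is therefore not read. In cow 2 its 13 UMIs lay in 8 of 26 cells (30.8%, 14.3 to 51.8%), against 9.14% (7.45 to 11.1%) of gate-matched cells. In cows 1 and 3 the shares of cells were 6.67% and 5.26% against 6.14% and 2.95%, with intervals that overlapped. Without cow 3 it was not called against gate-matched cells (0.89). KRT6B, a keratin of wounded and suprabasal epithelium with near-identical relatives, was called higher in the first comparison only (1.38 ± 0.33, adjusted p = 0.0145). It rests on 3, 3 and 44 UMIs, of which 2, 2 and 29 lay in 1 cell of each cow. With the cell holding the most left out of both groups, the unscaled levels of KRT6B were 2.13, 3.20 and 4.29 CPM against 0, 4.01 and 4.68 in the cells without SOSTDC1. For the same reason as with TNFRSF6B, no direction is read from these levels. Apart from the rule for named genes, and after their values were seen, the other 3 genes called higher in the first comparison were S100A12 (0.39), CAPG (0.97) and ACKR4 (1.00), each higher in 2 of 3 cows.

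The genes of the pathways of SOSTDC1 and DLK2 are given next. Over all genes 0.0594% were called higher and 0.198% lower in the first comparison, and 0.146% and 0.625% against gate-matched cells. In lists of this size a count of 0 is near the share over all genes. A count of 1 lies above that share but rests on a single gene. Nothing about the pathways is read from either. Of 32 genes of BMP ligands, receptors and antagonists, 14 were tested in the first comparison and 0 called, with a median of 0.08. Against gate-matched cells 15 were tested and 1 was called higher. That was the ligand gene BMP7, one of the markers chosen with these data known, so nothing is read from its call, and it was lower in cow 1 (3.75 against 5.95 CPM) and rests on 2 and 3 UMIs in cows 1 and 2. The receptor genes BMPR1A, BMPR2 and ACVR1 had log2 fold changes of 0.01, 0.12 and 0.33 against gate-matched cells, and the antagonist gene CHRDL1 had 0.14. Of the 21 BMP and SMAD signal carriers and targets, 16 were tested and 0 called in either comparison, with ID1 at -0.04, ID2 at 0.25 and ID3 at 0.63 against gate-matched cells. Of the 41 WNT ligands, receptors and antagonists, 17 were tested in the first comparison and 16 against gate-matched cells, and 0 were called in either, with medians of -0.00 and -0.05. The R-spondin receptor gene LGR4 had -0.53 with an edgeR adjusted p of 0.054 against gate-matched cells. Of the 20 WNT carriers and targets 16 were tested and 0 called, with AXIN2 at -0.40 and CTNNB1 at 0.09. Of the 25 Notch genes 14 and 12 were tested and 0 called, with medians of -0.04 and -0.05. NOG and SOST were at 0 UMIs in all SOSTDC1 cells, as were DLK1, DKK1 and LEF1.

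The counts in the lists of keratinocyte layers and the others that follow are read in the same way, with each count of 1 resting on a single gene. Of 21 tested basal genes 0 were called in either comparison, with medians of -0.01 and -0.04. Of 14 tested spinous and suprabasal genes 1 was called higher in the first comparison, which was KRT6B, and 0 against gate-matched cells. Of the cornified envelope genes 8 and 7 were tested and 0 called. LCN2 was the 1 gene called, in either comparison, among 8 and 9 tested genes of simple epithelia, whose medians had the opposite sign (-0.13 and -0.21), and 0 of the 8 tested placode and appendage genes were called. Of the glucocorticoid and FOXO linked genes 0 of 22 were called in the first comparison. Against gate-matched cells 1 of 20 was called lower, MAOA with -0.44. Among 17 tested MHC and NF-kB response genes, CXCL3 was called lower in the first comparison and 0 against gate-matched cells. Of the markers of cells outside the epithelium, 6 were tested in the first comparison and 0 were called.

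**Figure D5:**
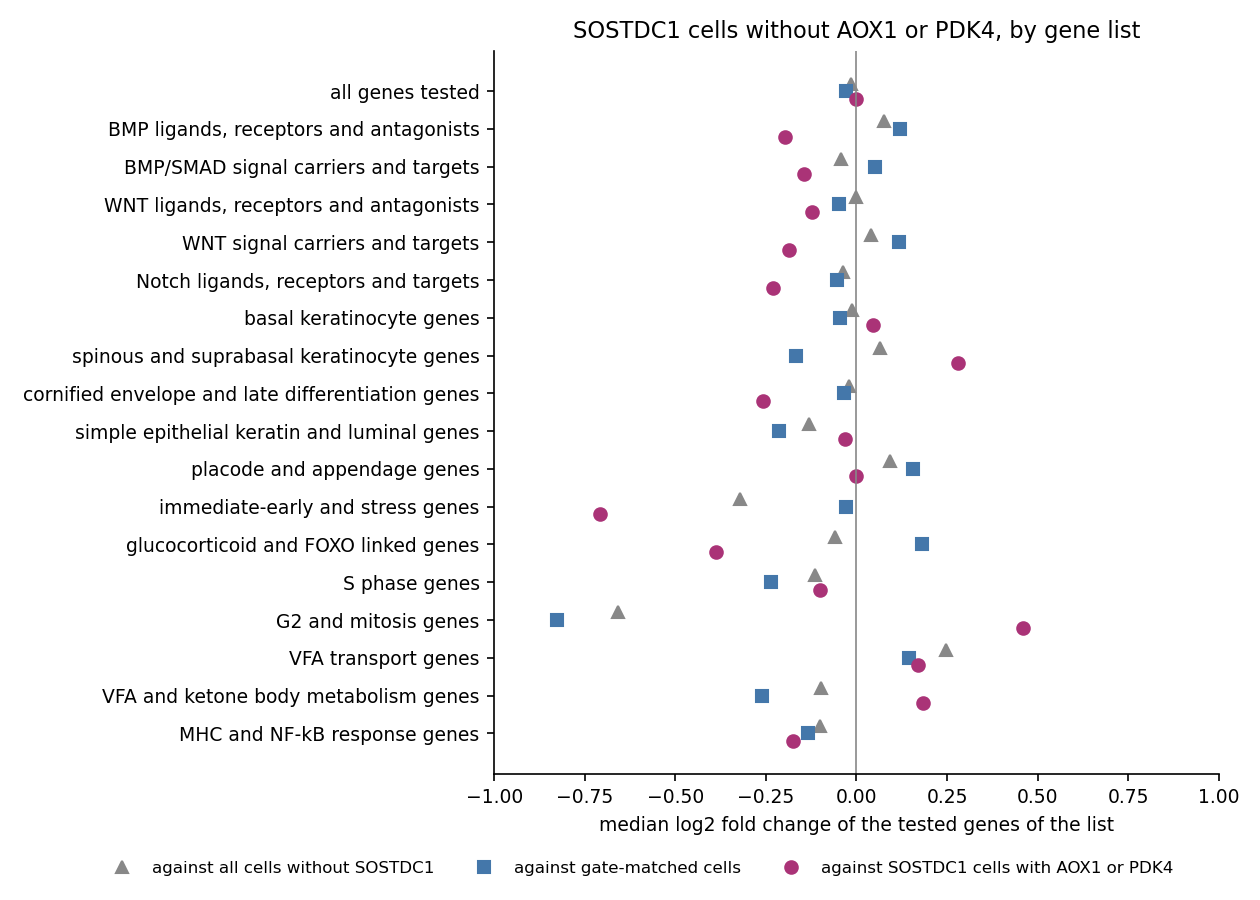
Median log2 fold change of the tested genes of each list, for SOSTDC1 cells without AOX1 or PDK4 against all DLK2-positive cells without SOSTDC1 (triangles), against gate-matched cells (squares) and against SOSTDC1 cells with AOX1 or PDK4 (circles). The G2 and mitosis list lies at -0.66, -0.83 and 0.46, and the immediate-early list at -0.32, -0.03 and -0.71.

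The third comparison set the SOSTDC1 cells against the 334 cells that also had DLK2 and SOSTDC1 but held AOX1 or PDK4. Of 27 tested immediate-early and stress genes, 14 were called lower in the SOSTDC1 cells without AOX1 or PDK4, and S100A12 was higher. Of 9606 genes, 44 were called higher (0.458%) and 46 lower (0.479%), with all 44 and 43 of the 46 having the same sign in each cow. With no term for the cow 0 genes were called and 270 had an unadjusted p under 0.05, while DESeq2 with the cow called 52 higher and 49 lower. Leaving out cow 1 gave 22 higher and 39 lower, leaving out cow 2 gave 43 and 30, and leaving out cow 3 gave 28 and 27. When each cell was thinned to 5000 UMIs before the gate, 5 were called higher and 23 lower. The medians of UMIs per cell in the cells with AOX1 or PDK4 were 10027.5, 11311.5 and 8524.5.

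None of the immediate-early and stress genes was called higher (0 of 27), and they had a median of -0.71 beside -0.00 over all genes. A lower level in each cow was found for 21 of them, beside 1609 of all 9606 genes. JUN stood at 1844, 3603 and 742 CPM against 2608, 5465 and 1588 (-0.74 ± 0.08 SE, edgeR adjusted p = 1.8e-07). EGR1 stood at 309, 606 and 60.7 against 468, 1230 and 158 (adjusted p = 6.93e-07), and ZFP36 at 75.0, 472 and 38.5 against 173, 1010 and 119 (-1.27 ± 0.15, adjusted p = 8.5e-07). S100A12, a calgranulin of epithelial and myeloid defence whose close relatives may share its reads, stood at 2638, 3651 and 1392 against 879, 1739 and 837 (1.11 ± 0.14, adjusted p = 1.63e-06). FABP4 was called higher here, at 18.7, 20.8 and 20.6 against 13.4, 13.7 and 6.86 (1.36 ± 0.30, adjusted p = 0.00949), but 8 of its 10 UMIs in cow 1 and 4 of its 7 in cow 2 lay in 1 cell each, and the cells with AOX1 or PDK4 held 10, 17 and 11 UMIs. With the cell holding the most FABP4 left out of both groups, the unscaled levels were 4.22, 8.95 and 17.7 CPM against 8.85, 9.14 and 5.18. They were then higher in cow 3 alone. In cow 2 the cell left out was 1 of 26 on the 1 side and 1 of 104 on the other, so its direction is not read. TNFRSF6B was also called higher (2.09 ± 0.34, adjusted p = 0.000245), and with the top cell left out of both groups its levels were 4.20, 24.4 and 11.4 CPM against 7.43, 6.72 and 3.23. These values rest on few UMIs. BDH1 differed by 0.02 ± 0.14 and was not called. Of the 24 G2 and mitosis genes 0 were called, and the median was 0.46.

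Of the other lists, the spinous genes had 2 of 14 called higher with a median of 0.28, and VFA transport and VFA metabolism had 1 gene each called higher (medians 0.17 and 0.18). The MHC and NF-kB genes had 2 called lower, and the Notch, placode and glucocorticoid lists 1 each. The BMP, SMAD, WNT, basal, cornified, simple epithelial and S phase lists had 0 called.

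Whether the SOSTDC1 difference among DLK2-positive cells depended on AOX1 or PDK4 was tested by the interaction of both. It was called for 0 of 9606 genes (0%). An unadjusted p under 0.05 was found for 399 genes in edgeR and for 201 in DESeq2, which also called 0. The count was not 0 under every alternative: it was 5 with no filter on low counts, 5 in cells thinned to 5000 UMIs, 6 in cells of 5000 to 15000 UMIs, 18 with at least 2 SOSTDC1 UMIs and 1 without cow 3. Whether the difference depends on AOX1 or PDK4 is therefore not settled by these fits.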

How the data were processed

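Single-cell libraries of rumen epithelium from 3 cows were analysed. The authors aligned the reads and made the deposited UMI counts per gene and cell with Cell Ranger 3.1.0 on ARS-UCD1.2, and their methods state filters of 500 to 4000 genes, at most 50000 UMIs and at most 40% mitochondrial share, doublets identified with DoubletFinder, and removal of other cell types. They also deposited natural log values of the same cells, which gave the gene names and no result. No further doublet caller was run. Genomic positions were not used here.

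Cells were gated on UMI counts, and counts were summed per cow and gate. edgeR 4.0.16 in R 4.3.3 was run with TMM scaling, filterByExpr, the quasi-likelihood test and the cow as a block, on 10096 genes for 6 sums and 9606 for 12. Sums of the same cow deviated together from the mean of their gate (lowest correlation 0.241, mean 0.510). The mean between cows was -0.255, but subtracting the mean of 3 cows forces it below 0, so it is no separate contrast. On simulated counts for the first comparison (9877 genes, 200 changed), 89% of 2-fold and 100% of 4-fold changes were called, with 4 false calls. The changed genes were drawn only from those with a high mean level, and the sums were drawn without clumping of UMIs in single cells. These rates therefore do not cover genes with few UMIs or genes whose UMIs lay in few cells. The levels of single cows rest on 1 library each, and intervals and limits (3 UMIs for a count of 0) cover counting error only. DESeq2 1.42.0, thinning, stricter gates and each cow left out were alternatives. The gates and sums were made in Python 3.11.15 (pandas 2.3.3, numpy 2.4.6, scipy 1.17.1), and figures with matplotlib 3.10.9.

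The members and the 22 gene lists were chosen with earlier results of these data known. Named genes were the 4 genes of the gate with PLAC8, BMP7 and KRT7; the up to 12 largest and 12 smallest log2 fold changes called in the first comparison with at least 20 CPM and the same sign in 3 cows; up to 4 called genes per list; up to 5 of the interaction; and the 5 largest and 5 smallest of the gate-matched comparison. Others named are list members or are stated as chosen later. Leaving out the cell with the most UMIs of a gene was chosen after seeing the data. Some genes are not reported here.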

Additional observations from a re-analysis of the deposited data

How the results depend on the processing

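Results in this section are counts of called genes, given for the first comparison (6 higher and 20 lower), the gate-matched comparison (14 and 60), the comparison with SOSTDC1 cells holding AOX1 or PDK4 (44 and 46) and the interaction (0). With no replicate block all 7 counts were 0, so each call rests on pairing the sums by cow. Leaving out 1 cow each, the counts ranged from 3 to 6 higher and 1 to 60 lower, from 0 to 13 and 6 to 65, from 22 to 43 and 27 to 39, and from 0 to 1 for the interaction. DESeq2 gave 1 and 1 in the first comparison and 3 and 12 in the gate-matched one. Without a filter on low counts the gate-matched counts were 23 and 105, the third comparison had 77 higher, and the interaction 5. Thinned to 5000 UMIs, the first comparison had 1 higher and 12 lower, the gate-matched one 5 higher, the third 5 and 23, and the interaction 5. In cells of 5000 to 15000 UMIs, 37 were lower in the first comparison, 4 higher in the third, and 6 in the interaction. With at least 2 SOSTDC1 UMIs, where cow 2 had 1 cell, the counts were 10 and 41, 68 and 174, 3 and 4, and 18. With at least 2 DLK2 UMIs they were 2 and 9, 0 and 0 (424 at an unadjusted p under 0.05 in edgeR), and 7 and 24. With 5 to 20% mitochondrial share 23 were higher in the third comparison. Without the 5% of cells with the most UMIs 35 were lower in the first and 71 in the third. The cause of these moves was not tested. Some settings leave fewer cells or genes, while without a filter on low counts more genes were tested (16968 and 17019, against 10096 and 9606).

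The mean share of SOSTDC1 cells fell from 5.91% to 2.31% with at least 2 SOSTDC1 UMIs (0.897%, 0.0271% and 6.01% in cows 1 to 3), was 5.09% to 6.89% under the other settings, and ranged from 1.92% to 8.52% with 1 cow left out. Its SD exceeds its mean, so a distance of 1 SD says nothing of its stability. The difference of median UMIs moved from -178 to -1442 with at least 2 SOSTDC1 UMIs and ranged from -302 to -93.5 with 1 cow left out. Of 391 values for 28 log2 fold changes of named genes, 222 kept their call and direction, 166 lost the call and 3 reversed: FABP4 to 0.034 in cells of 5000 to 15000 UMIs, and CXCL3 to 0.041 and KRT6B to -0.41 with at least 2 SOSTDC1 UMIs, all in the first comparison. An alternative chosen after seeing the data left out cells with shared barcodes, and 27 of the 28 kept their call. With adjusted p alone, the gate-matched comparison had 88 genes. Depth limits the values of cows 1 and 2, whose SOSTDC1 cells number 45 and 26.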
